A study of Homo sapiens with 8 samples.

Results

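The proteasome genes were examined as a group of promoters in ATAC-seq peak lists, in which the transposase Tn5 marks accessible DNA. Members were the protein-coding genes of the GENCODE annotation on GRCh37 whose symbols start with PSMA, PSMB, PSMC, PSMD, PSME, PSMF or PSMG, and 50 of 20162 protein-coding genes met this rule. HUDEP-2 cells, an immortalised line of human erythroid progenitors from cord blood, were used. All carried a control guide (sgControl), which the study used beside a KRAB-dCas9 silencing vector, so every library here shares that background. Cells had grown with stem cell factor (SCF), dexamethasone, EPO and doxycycline. Growth factors were withdrawn for 5 h, and PBS or 50 ng/ml SCF, the ligand of the Kit receptor, was then added for 1 h. Each treatment had 2 libraries of 50000 cells, referred to as PBS 1, PBS 2, SCF 1 and SCF 2, and pairs of values are given in that order. The sgEGR1 samples of the series were not analysed here. The comparisons ask how open the proteasome promoters were, whether constitutive and immunoproteasome genes differed, and whether SCF changed them.

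The lists held 29269 to 33616 peaks per library. Read totals are unknown, but the summit pileup, a count of the fragments at the highest point of a peak, was recovered from the deposited values. The genome-wide background was 1.05 and 1.5 fragments under PBS and 0.944 and 0.885 under SCF, so PBS 2 was the deepest. Of 8 erythroid marker genes, 7 had a promoter peak in all 4 libraries, including GATA1 and KLF1, whereas ALAS2 had one in PBS 2 alone. Of 10 markers of other lineages, 8 had none, PAX5 had one in SCF 1 alone, and SPI1, which is also active in early haematopoietic cells, had one in all 4.

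The 26S proteasome degrades ubiquitin-tagged proteins. Its 20S core is a barrel of outer alpha and inner beta rings, and PSMB5, PSMB6 and PSMB7 carry the proteolytic sites. The 19S cap, built of PSMC ATPases and PSMD subunits, recognises, unfolds and feeds in the substrates. Under interferon gamma, PSMB8, PSMB9 and PSMB10 replace PSMB5, PSMB6 and PSMB7, respectively, to form the immunoproteasome, and PSME1 and PSME2 build the PA28 activator. Maturing erythroid cells clear much of their proteome, and proteasomes take part in that clearance.

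Promoter sequence was read from GRCh37 and searched on both strands, from 250 bases before to 50 bases after the canonical start site, for short words recognised by transcription factor families. Shown first are the stretches before the catalytic genes, because the comparison of constitutive with immunoproteasome subunits turns on them. Each lies upstream of the start site and overlaps no annotated exon. It is written 5′ to 3′ on the strand of the gene, and capitals mark words for ETS factors (CCGGAAG), NF-Y (CCAAT), the antioxidant response element bound by NRF proteins (TGACNNNGC), the interferon-stimulated response element or ISRE (AAANNGAAA) and the gamma-activated site or GAS (TTCNNNGAA). A capital run may be the reverse complement of the word.
PSMB5 (chr14:23504110-23504259, minus strand): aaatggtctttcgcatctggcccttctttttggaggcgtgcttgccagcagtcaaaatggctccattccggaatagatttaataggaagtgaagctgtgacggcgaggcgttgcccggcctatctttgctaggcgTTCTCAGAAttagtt
PSMB6 (chr17:4699289-4699438, plus strand): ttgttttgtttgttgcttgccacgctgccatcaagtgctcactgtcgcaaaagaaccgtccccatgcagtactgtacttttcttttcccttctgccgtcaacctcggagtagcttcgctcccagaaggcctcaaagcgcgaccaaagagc
PSMB7 (chr9:127177724-127177873, minus strand): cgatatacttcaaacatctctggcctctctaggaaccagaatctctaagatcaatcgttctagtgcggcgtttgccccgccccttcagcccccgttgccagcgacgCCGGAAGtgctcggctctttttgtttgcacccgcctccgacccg
PSMB9 (chr6:32821775-32821924, plus strand): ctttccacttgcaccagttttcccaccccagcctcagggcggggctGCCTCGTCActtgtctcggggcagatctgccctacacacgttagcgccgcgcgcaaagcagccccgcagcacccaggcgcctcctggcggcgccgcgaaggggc
PSMB10 (chr16:67970768-67970917, minus strand): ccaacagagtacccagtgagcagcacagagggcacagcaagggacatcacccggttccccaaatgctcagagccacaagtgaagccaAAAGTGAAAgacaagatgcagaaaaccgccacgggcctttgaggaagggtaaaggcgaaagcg

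The letters before PSMB5 end with a GAS word 15 bases upstream of the start, and those before PSMB7 hold an ETS word at −46. The PSMB10 stretch holds an ISRE word at −77, and another begins at −20 and runs past the end of the stretch. For PSMB8, annotated exons cover the bases upstream, so none are printed. Its searched window held an ISRE word at −4 and a GAS word at −65.

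A second set shows the promoters with the highest pileups, PSMD8 and PSMG1, those with repeated words, PSMA5, PSMB3 and PSMA7, and PSMA8, which had no peak. PSMA5 and PSMB3 each carry a pair of CCAAT words in the same orientation, and PSMA7 carries 3 antioxidant response words. PSMD8 has an ETS word at −17 and an inverted CCAAT at −88.
PSMD8 (chr19:38865053-38865202, plus strand): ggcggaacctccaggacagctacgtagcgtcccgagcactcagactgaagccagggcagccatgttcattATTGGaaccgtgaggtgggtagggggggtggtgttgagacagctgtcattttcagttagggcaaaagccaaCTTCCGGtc
PSMG1 (chr21:40555415-40555564, minus strand): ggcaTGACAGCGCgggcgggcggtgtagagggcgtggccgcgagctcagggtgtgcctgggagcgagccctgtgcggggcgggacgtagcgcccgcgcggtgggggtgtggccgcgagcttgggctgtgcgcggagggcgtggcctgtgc
PSMA5 (chr1:109969071-109969220, minus strand): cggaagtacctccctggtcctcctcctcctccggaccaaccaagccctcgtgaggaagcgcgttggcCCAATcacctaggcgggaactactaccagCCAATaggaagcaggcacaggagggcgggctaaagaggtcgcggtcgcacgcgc
PSMB3 (chr17:36908844-36908993, plus strand): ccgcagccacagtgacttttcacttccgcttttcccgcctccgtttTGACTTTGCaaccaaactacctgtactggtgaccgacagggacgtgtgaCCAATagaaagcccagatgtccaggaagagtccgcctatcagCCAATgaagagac
PSMA7 (chr20:60718497-60718646, minus strand): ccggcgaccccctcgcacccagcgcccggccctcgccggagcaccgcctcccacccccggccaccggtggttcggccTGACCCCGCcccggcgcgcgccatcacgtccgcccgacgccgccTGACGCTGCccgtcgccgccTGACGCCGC
PSMA8 (chr18:23713666-23713815, plus strand): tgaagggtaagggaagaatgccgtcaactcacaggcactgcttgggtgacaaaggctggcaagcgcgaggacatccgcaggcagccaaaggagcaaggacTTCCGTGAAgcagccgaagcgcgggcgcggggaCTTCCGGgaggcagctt

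Proteasome promoters were nearly all open. A promoter peak, meaning a peak with its summit within 1 kb of the start of a coding transcript, was present in all 4 libraries for 45 of the 50 members, where 57.6% of all protein-coding genes had one. In 41 of the 45 the most enriched peak covered the canonical start in every library, and the exceptions were PSMB10, where it covered that start in 0 of 4, PSMC2, PSME3 and PSMG2. Every gene of the alpha ring (7 of 7), the 19S ATPases (6 of 6), the other 19S subunits (11 of 11), the 19S assembly factors (3 of 3), the 20S assembly chaperones (4 of 4) and the activators (4 of 4) was among them. The inhibitor PSMF1 and both interacting proteins, PSMC3IP and PSME3IP1, were too. All 18 partner genes outside the symbol rule, such as the ubiquitin receptor gene ADRM1, the maturation factor gene POMP and the regulator genes NFE2L1 and NFE2L2, also had a peak in all 4.

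The 5 exceptions were PSMB1, PSMB8, PSMB9, PSMA8 and PSMB11. PSMB1, a constitutive beta subunit, had a peak over its start site in every library, but in PBS 2 a single wide peak had its summit 1070 bp away and so missed the limit. Its fold enrichment, the ratio of the summit pileup to the local background, was 6.99 in PBS 1, 11.1 in SCF 1 and 9.75 in SCF 2. These values belong to different summits, since the PBS 1 summit lay at 121 bp from the start and the SCF summits at −838 and −842 bp, on the side of the TBP start. SCF 1 also had a weaker peak over the start, with its summit 88 bp away and a fold enrichment of 6.67. Having no summit within the limit in PBS 2, PSMB1 was left out of the test of SCF.

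PSMA8, the alpha subunit of the testis, and PSMB11, the beta subunit of the thymus, had no promoter peak in any library. The summit nearest to a PSMA8 start lay 42.8 to 43.1 kb away in 3 libraries and 5.79 kb away in SCF 1, where it was a weak peak of 7 fragments. PSMB11 starts 7.31 kb from PSMB5 on chromosome 14, and in both SCF libraries its nearest summit was that of the PSMB5 promoter. An absent peak means that none passed the threshold at this depth.

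PSMB8 and PSMB9 also lacked a promoter peak in all 4 libraries, but so did nearly all genes around them. They lie in the major histocompatibility region of chromosome 6 with canonical starts 10.1 kb apart, and a second annotated start of PSMB9 lies 89 bp from that of PSMB8. Of the 182 protein-coding genes between 28.5 and 33.5 Mb, 2 (1.10%) had a promoter peak in any library. In the preceding 5 Mb the share was 79.2% (84 of 106 genes), and in the following 5 Mb it was 77.8% (49 of 63). The segment held 3 and 4 peaks under PBS and 2 in each SCF library, where either flank held 167 to 203. The summits nearest to PSMB8 lay 235 kb before and 637 kb after it. The lists also held 41 peaks on 6 alternative haplotype contigs of chromosome 6, which carry other versions of this region. Whether reads from the region were lost between such copies was not tested, so the missing peaks at PSMB8 and PSMB9 cannot be read as closed promoters. Among other genes of antigen presentation, TAP1, TAP2, TAPBP, HLA-B, HLA-C and HLA-E, which lie in the segment, had no peak, and B2M, ERAP1, NLRC5 and IRF1, which lie outside it, had one in all 4 libraries.

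**Figure D1:**
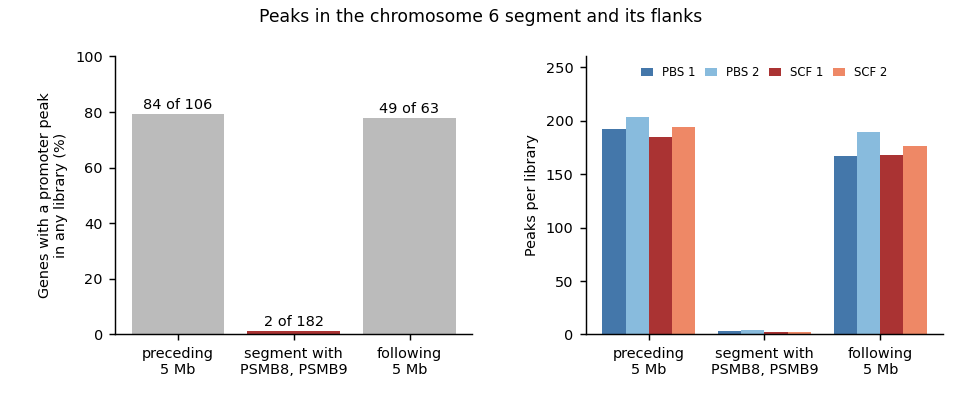
Left, percent of protein-coding genes with a promoter peak in any of the 4 libraries in the chromosome 6 segment that holds PSMB8 and PSMB9 and in the 5 Mb on either side, with gene counts above the bars. Right, number of peaks per library in the same intervals; the segment holds 2 to 4 peaks per library and the flanks 167 to 203.

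Among the members with a peak in all 4 libraries, fold enrichment had a median slightly above that of all promoters and a narrower spread. The median of the members' mean fold enrichment (geometric mean over the 4 libraries) was 12.2, with quartiles of 10.4 and 13.4, against 11.02 with quartiles of 8.41 and 13.3 over all 11615 promoters with such peaks. The SD across promoters on the log2 scale was 0.296 for the members and 0.501 for all. Of the 45 members, 28 were above the median of all promoters. The lowest member, PSMC2, stood at the 16.2 percentile of all open promoters and the highest, PSMB5, at the 97.9 percentile. Pileup over the genome-wide background gave a similar position, with a median of 70.9 for the members and 63.3 for all promoters. By that measure the members ran from 22.3 for PSMC1, at the 10.5 percentile, to 258 for PSMG1, at the 98.9 percentile.

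**Figure D2:**
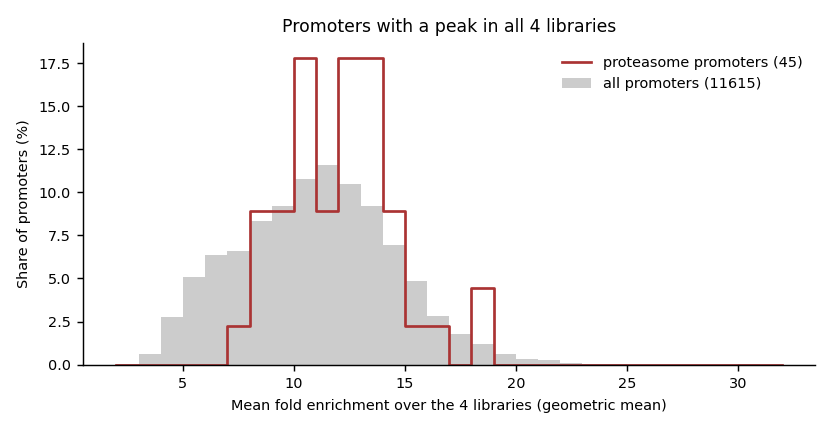
Share of promoters (percent, vertical axis) in bins of mean fold enrichment over the 4 libraries (horizontal axis, bins 1 unit wide) for the 45 proteasome promoters (line) and all 11615 promoters with a peak in all 4 libraries (bars). Proteasome promoters lie between 7.21 and 18.4, with a median of 12.2 against 11.02.

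PSMB5, the chymotrypsin-like subunit and the target of bortezomib, had the highest enrichment. Its values were 18.8 in PBS 1, 18.8 in PBS 2, 19.5 in SCF 1 and 16.7 in SCF 2, with 72 to 120 fragments at the summit. PSMD8, a subunit of the 19S lid, followed with 17.3 and 17.5 under PBS and 19.1 and 18.4 under SCF. PSMG1, a chaperone of alpha ring assembly, had 15.9 and 17.1 under PBS and 16.7 and 15.5 under SCF. These genes had a percentile rank of 96.0 or more among the peaks of every list.

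By pileup the order at the top changed. PSMG1 had 230 to 385 fragments and PSMD8 206 to 300, the 2 highest means among the members, which stood at the 98.9 and 97.9 percentiles of all open promoters. PSMB5 stood at the 66.5 percentile, its enrichment being taken over a low local background. Across the 45 members, fold enrichment and pileup over the genome-wide background had a Spearman correlation of 0.61, beside 0.67 across all promoters. Both measures use the same fragments, so the correlation is a description.

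At the lower end, PSMC2, an ATPase of the 19S base, had a fold enrichment of 8.16 and 7.21 under PBS and 8.02 and 5.72 under SCF. The SCF 2 value came from another annotated start, and at the canonical start it was 5.63. PSMC3IP, which is named for binding PSMC3 but acts in meiotic recombination, had 8.23 and 8.48 under PBS and 8.14 and 8.33 under SCF, the narrowest spread of the low genes. PSMG2, the partner of PSMG1 in assembly, had 8.28 and 7.76 under PBS but 12.2 in SCF 1 and 6.91 in SCF 2, with 18 to 44 fragments. The PBS 2 summit of PSMG2 lay up to 44694 bp from the others, at another annotated start, and the peak at its canonical start had 6.84 in that library. The lowest pileups over background were those of PSMC1, PSMB6 and PSMG2.

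**Figure D3:**
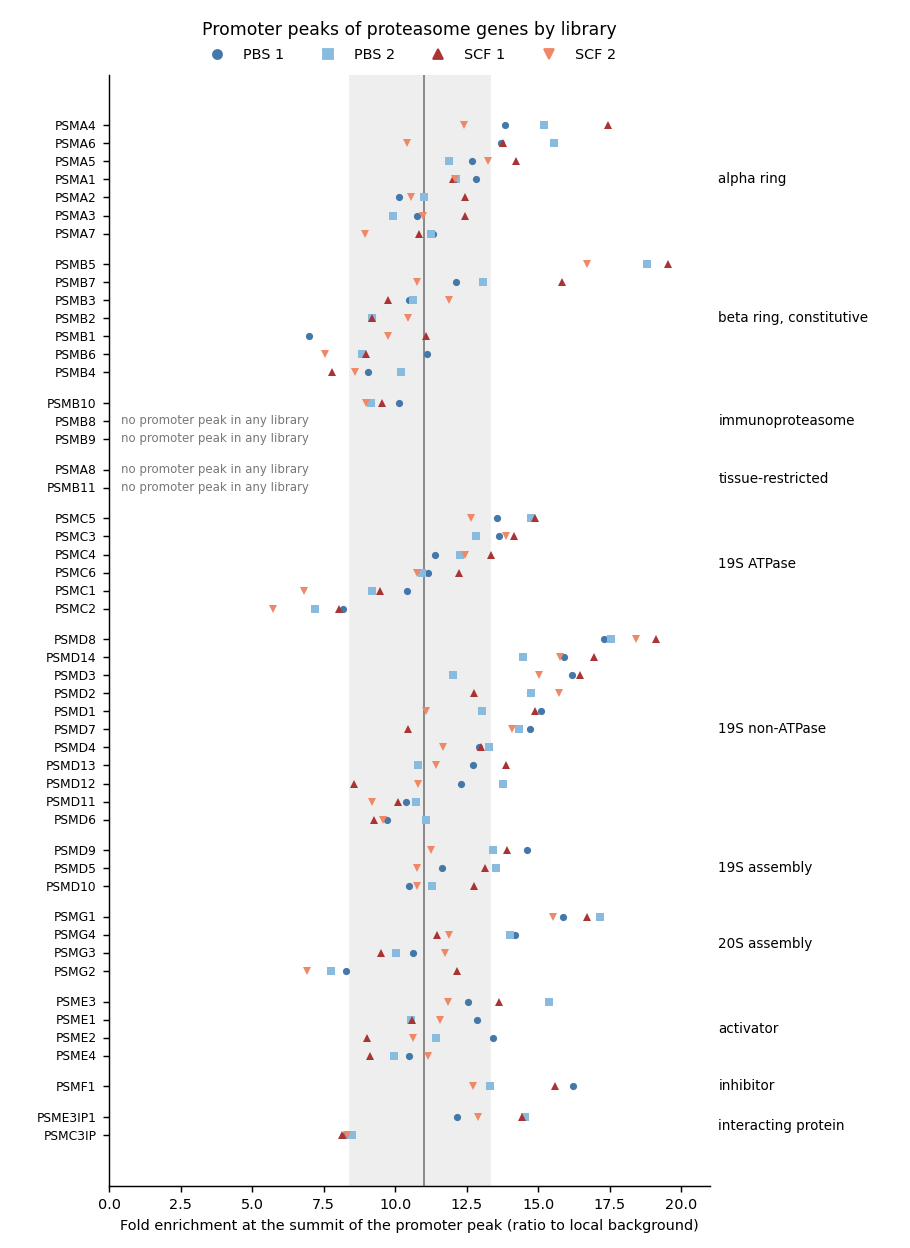
Fold enrichment at the summit of the promoter peak (horizontal axis, ratio to local background, not centred) for each of the 50 genes, grouped by class, with 1 symbol per library. The grey line and band mark the median (11.02) and quartiles (8.41 and 13.3) of the mean enrichment over all 11615 promoters; PSMB5 and PSMD8 lie furthest right, and 4 genes have no promoter peak.

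The classes overlapped. The median of the gene means was 12.3 in the alpha ring, with PSMA7 lowest at 10.5 and PSMA4 highest at 14.6. In the constitutive beta ring it was 10.1, with a range from 8.86 for PSMB4 to 18.4 for PSMB5, the widest of any class in these lists. The 19S ATPases had a median of 11.8, from 7.21 for PSMC2 to 13.9 for PSMC5, and the other 19S subunits 13.3, from 9.88 for PSMD6 to 18.1 for PSMD8. The 19S assembly factors ranged from 11.3 for PSMD10 to 13.2 for PSMD9. The 20S assembly chaperones ranged from 8.57 for PSMG2 to 16.3 for PSMG1. Among the activators, PSME4 (PA200) was lowest at 10.1 and PSME3 (PA28 gamma) highest at 13.3. PSMF1, the PI31 protein, had 14.4.

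Constitutive and immunoproteasome genes could be compared for 1 of the 3 catalytic pairs, and there only at an alternative start of PSMB10. PSMB6, the caspase-like subunit, had 11.1 and 8.85 under PBS and 8.98 and 7.54 under SCF, and PSMB5 the values given above, but their counterparts PSMB9 and PSMB8 lie in the segment without peaks. PSMB7, the trypsin-like subunit, had 12.1 and 13.1 under PBS and 15.8 and 10.8 under SCF. Its counterpart PSMB10, on chromosome 16, had 10.1 and 9.15 under PBS and 9.55 and 8.97 under SCF. Those PSMB10 peaks had their summits 944 to 1047 bp inside the gene from the canonical start, near another annotated coding start, and did not reach the stretch of PSMB10 printed above. Close to the canonical start, weak peaks were listed in PBS 2 (2.65, summit at 97 bp) and SCF 1 (2.98, summit at 23 bp) and none in PBS 1 or SCF 2. By fold enrichment PSMB7 was above PSMB10 in 4 of 4 libraries, by 1.20, 1.43, 1.66 and 1.20 times. By summit pileup PSMB7 was below PSMB10 in every library, with 58, 89, 81 and 50 fragments against 81, 102, 82 and 74. With peaks within 1 kb of the canonical starts alone, the PBS 2 ratio of fold enrichment was 4.93. The stronger PSMB10 summit then lay beyond the limit, and the other ratios of fold enrichment were the same.

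PSMB10 thus had an open site near an alternative start in these cells, without added interferon, at the 33.5 percentile of open promoters. This site was less enriched than the median of the constitutive core, the 31 genes of the alpha ring, the constitutive beta ring and the 19S subunits, by 0.28 and 0.40 on the log2 scale under PBS and 0.38 and 0.30 under SCF (mean 0.34, SD between replicates 0.071). With canonical starts alone the PBS 2 difference was 2.19 and the mean 0.79. Core genes below PSMB10 numbered 5, 2, 7 and 5 in PBS 1, PBS 2, SCF 1 and SCF 2. The 6 constitutive beta genes with a peak in all 4 libraries had a median mean enrichment of 10.1. Of these, PSMB4 (8.86) and PSMB6 (9.03) lay below PSMB10 (9.44). PSMB2 (9.48), PSMB3 (10.7), PSMB7 (12.8) and PSMB5 (18.4) lay above it. Pileup turned the direction: PSMB10 had 81, 102, 82 and 74 fragments, where the core medians were 75, 97.5, 81 and 59, and the mean difference was −0.13 on the log2 scale. The measures thus placed PSMB10 on opposite sides of the core median.

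With all 3 immunoproteasome genes, and a gene without a peak set to the lowest enrichment of its list, the core exceeded the immunoproteasome by 3.24 and 3.23 on the log2 scale under PBS and by 3.26 and 3.09 under SCF. This median rests on PSMB8 and PSMB9 and so on the segment described above. The PBS and SCF values overlapped.

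PSME1 and PSME2, which lie 10.4 kb apart on chromosome 14, had a peak in all 4 libraries and enrichment close to the core. PSME1 had 12.9 and 10.5 under PBS and 10.6 and 11.6 under SCF. PSME2 had 13.4 and 11.4 under PBS and 9.02 and 10.6 under SCF. Its summits lay at −583 and −542 bp from the canonical start under PBS and at −313 and −616 bp under SCF. That is the side of RNF31, which starts 37 bp away on the opposite strand, so these peaks cannot be assigned to PSME2 alone. The core minus the mean of this pair ranged from −0.10 to 0.35 on the log2 scale over the 4 libraries, with both signs among them.

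Words for interferon-responsive factors were searched in the same windows. An ISRE word was found at PSMB8, PSMB10, PSME1 and PSME2, that is, 4 of the 5 interferon-inducible members, and at 3 of the other 45 (PSMB4, PSMD6 and PSMG4). Among all 19881 promoters searched, 8.60% held it. PSMB9, the exception, held none in this window. A GAS word was found at 7 members (14%), against 5.60% of open promoters and 6.49% of all promoters. Around the summit the shares were 11.1% of open members and 3.42% of open promoters. These GAS shares were not tested. Among the 7 members, PSMB8 was the only inducible gene.

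ETS words were more frequent at members than in the background, although these shares were not tested. They were found in 40.0% of member promoters (20 of 50), in 21.2% of the 11587 open promoters with a canonical start and in 14.1% of all promoters. They occurred in 6 of 11 non-ATPase 19S genes, namely PSMD6, PSMD7, PSMD8, PSMD12, PSMD13 and PSMD14, and in 3 of 6 ATPase genes, but in 0 of the 5 interferon-inducible genes. The antioxidant response word was found in 28% of members, 15.1% of open promoters and 14.0% of all. It occurred in 7 of the 31 core genes (22.6%), among them 2 of 7 constitutive beta genes (PSMB3 and PSMB6). It also occurred in 3 of the 5 interferon-inducible genes (PSMB9, PSME1 and PSME2). CCAAT was found in 44% of members, 37.3% of open promoters and 36.0% of all. GGGCGG, recognised by SP and KLF factors, was found in 70.0% of members, below the 76.3% of open promoters and above the 61.4% of all. Around the summit (100 bp on each side) the shares were 31.1% of the 45 open members against 13.6% of open promoters for ETS and 22.2% against 10.1% for the antioxidant response word, but 26.7% against 25.04% for CCAAT and 55.6% against 60.8% for GGGCGG.

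Words for factors of the erythroid and immediate early programmes were rare. A GATA word (AGATAA or TGATAA) was present in 1 member, PSMC6 (2% of members, 6.61% of open promoters, 11.3% of all promoters). An AP-1 word (TGANTCA) was present in 1, PSMD9 (2% against 3.52% of open and 5.40% of all). The EGR word GCGTGGG was present in 3, PSMD9, PSMD12 and PSME4 (6% against 10.3% and 8.56%). The cAMP response word TGACGTCA was present in 0 of 50 members, 3.76% of open promoters and 2.68% of all promoters. The YY1 word AAGATGGCG was present in 4 members, PSMA2, PSMB6, PSMB7 and PSMD11 (8% against 4.58% and 2.85%). The word GCATGCGC of nuclear respiratory factor was present in 2 (4% against 6.17% and 4.27%), and the E-box CACGTG in 4 (8% against 10.9% and 8.76%). An AP-1 word with C in its free position, followed by GC, would also match the antioxidant response word. A match is a description of the letters and not a bound site.

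**Figure D4:**
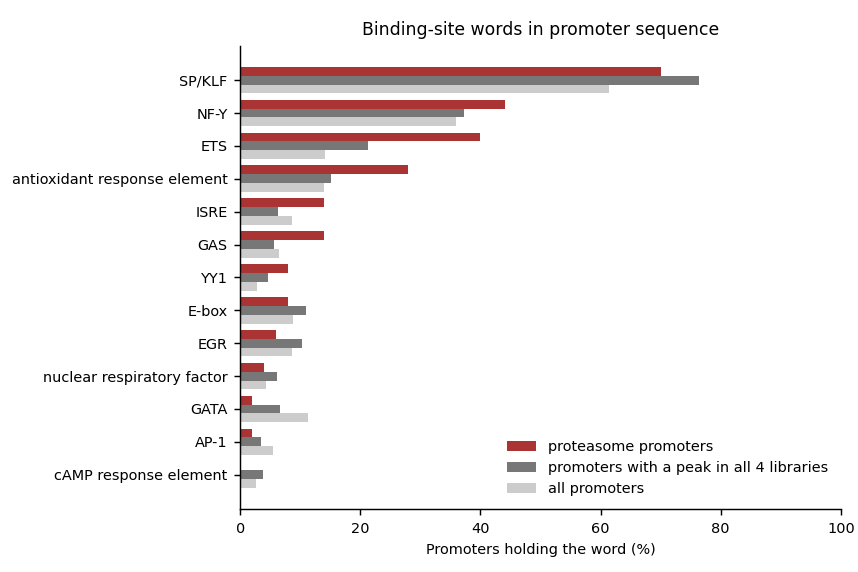
Percent of promoters holding each binding-site word (250 bases before to 50 after the canonical start, both strands) among the 50 proteasome promoters, the 11587 promoters with a peak in all 4 libraries and all 19881 promoters. ETS and the antioxidant response element show the widest gaps in favour of the proteasome genes (40.0% and 28% against 14.1% and 14.0% of all promoters).

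Members with and without these words overlapped in enrichment. Members with an ETS word had a median fold enrichment of 12.5 (n = 18) and those without 12.2 (n = 27). The 6 open members with an ISRE word had a median of 10.4 against 12.3 for the other 39. PSMB10 is among the 6, but its enrichment was that of the alternative start, outside the window that holds its ISRE words. The GC content of member promoters had a median of 61.7%, below the 66.7% of open promoters, and across the 45 members it had a Spearman correlation of 0.15 with mean log2 enrichment.

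Summits of the members lay close to an annotated coding start. The median distance to the nearest such start was 78.5 bp, against 97.5 bp over all open promoters. In 41 of 45 members (91.1%) every library's summit was within 250 bp of such a start, compared with 79.3% of all. Measured from the canonical start, 5 of the 45 had a summit over 500 bp away in at least 1 library. The PSMD8 summits lay within 9 bp of each other across the 4 libraries and those of PSMA7 within 14 bp. The widths of member peaks were ordinary, with a median of 961 bp against 928 bp.

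Many members share a promoter region with a neighbour. A start on the opposite strand lay within 1 kb for 15 of 50 members (30.0%) and for 15.3% of all protein-coding genes. Such pairs included PSMC5 with FTSJ3 at 21 bp, PSME2 with RNF31 at 37 bp, PSME3 with the autophagy gene BECN1 at 47 bp, PSMD13 with the deacetylase gene SIRT3 at 117 bp and PSMA2 with MRPL32 at 191 bp. The 12 paired members with a peak in all 4 libraries had a median enrichment of 11.1, and the other 33 had 12.7. A peak there cannot be assigned to one gene of the pair. Inside gene bodies, more than 1 kb from any coding start, 6 of 50 members (12%) had a peak in all 4 libraries, against 21.6% of all genes. Among them PSMG4 had 4, 3, 3 and 4 such peaks and PSMF1 had 3, 3, 2 and 2, in PBS 1, PBS 2, SCF 1 and SCF 2.

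SCF for 1 h left no proteasome promoter past the threshold. limma was fitted to log2 fold enrichment, centred on the median of each library, over all 11615 promoters. At a Benjamini-Hochberg adjusted p under 0.05 it called 0 of 45 members and 0 of all promoters (0%). At an unadjusted p under 0.05 it gave 3 members (6.67%) and 787 promoters (6.78%), so the share of members was close to the background. No other tool was run on these values, and an exact two-sided permutation test of 2 against 2 libraries cannot fall below p = 0.333. The median difference of SCF minus PBS was −0.02 on the log2 scale over the members, with quartiles of −0.11 and 0.11, and 0.01 over all promoters. It was above 0 in 20 members and below 0 in 25.

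Precision limited what could be seen. The SD between replicates of the members was 0.158 on the log2 scale, and counting error at their pileups alone would give 0.179. The median half-width of the members' 95% intervals, unadjusted for the number of promoters, was 0.27. Typical changes smaller than this were not detectable, and larger ones could also miss the adjusted threshold. Over all promoters the differences ran from −0.90 to 1.01, and the smallest limma adjusted p was 0.28. In 34 of 45 members the replicates of one treatment differed by more than the treatment means did. Single libraries vary more than means of replicates, and either treatment could meet this rule, so a high count can arise at ordinary precision. The share over all promoters was not computed, so no conclusion about the members is drawn from this count.

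PSMD12, a 19S lid subunit, showed the largest difference of any member in this fit. Its fold enrichment was 12.3 and 13.8 under PBS and 8.55 and 10.8 under SCF. Both SCF values lay below both PBS values. The log2 difference was −0.41 (SE 0.15, limma adjusted p = 0.64). PSME2 followed with −0.31 (SE 0.14, limma adjusted p = 0.72), and its groups did not overlap either. The PSME2 summits, up to 303 bp apart, lay on the side of the RNF31 start. The third was PSMC1, an ATPase of the 19S base, with 10.4 and 9.20 under PBS and 9.46 and 6.82 under SCF, whose groups overlapped (−0.26, SE 0.17, limma adjusted p = 0.82). PSMG4, a chaperone of 20S assembly, had 14.2 and 14.0 under PBS and 11.5 and 11.9 under SCF, a difference of −0.24 (SE 0.12, limma adjusted p = 0.73). Both pairs of replicates were close together, and it is the third of the members with an unadjusted p under 0.05.

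In the other direction, PSMG2 had the largest difference of this fit, 0.22 (SE 0.20, limma adjusted p = 0.90), which came from SCF 1 alone, and its groups overlapped. At its canonical start the difference was 0.31. PSMA3, an alpha subunit, had 10.7 and 9.91 under PBS and 12.4 and 10.96 under SCF, so both SCF values were higher (0.20, SE 0.13, limma adjusted p = 0.82). PSMD3, a 19S lid subunit, had 16.2 and 12.02 under PBS and 16.5 and 15.01 under SCF (0.20, SE 0.12, limma adjusted p = 0.81). Its low value was that of PBS 2, the deepest library. PSME3, whose values in both SCF libraries came from another annotated start, with summits up to 9080 bp from those under PBS, differed by −0.10 in this fit and by −0.25 at its canonical start. PSMB5 differed by −0.03 (SE 0.09, limma adjusted p = 0.97) and PSMB10 by −0.03 (SE 0.15, limma adjusted p = 0.99). With canonical starts alone PSMB10 differed by 0.87 (SE 0.33, limma adjusted p = 0.62), more than PSMD12, because the weak peak stood for PBS 2 there and the strong one for the other libraries.

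Centred values of the groups did not overlap in 7 members with SCF higher (15.6%) and in 6 with SCF lower (13.3%). Over all promoters the shares were 19.2% higher and 16.7% lower, so the members were at or below the background in both directions. The higher members were PSMA3, PSMA5, PSMC3, PSMC4, PSMC6, PSMD8 and PSMD14, and the lower ones PSMA7, PSMB4, PSMD11, PSMD12, PSME2 and PSMG4. Medians by class ranged from −0.07 for the 4 activators to 0.05 for the alpha ring, among classes of more than 2 genes.

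**Figure D5:**
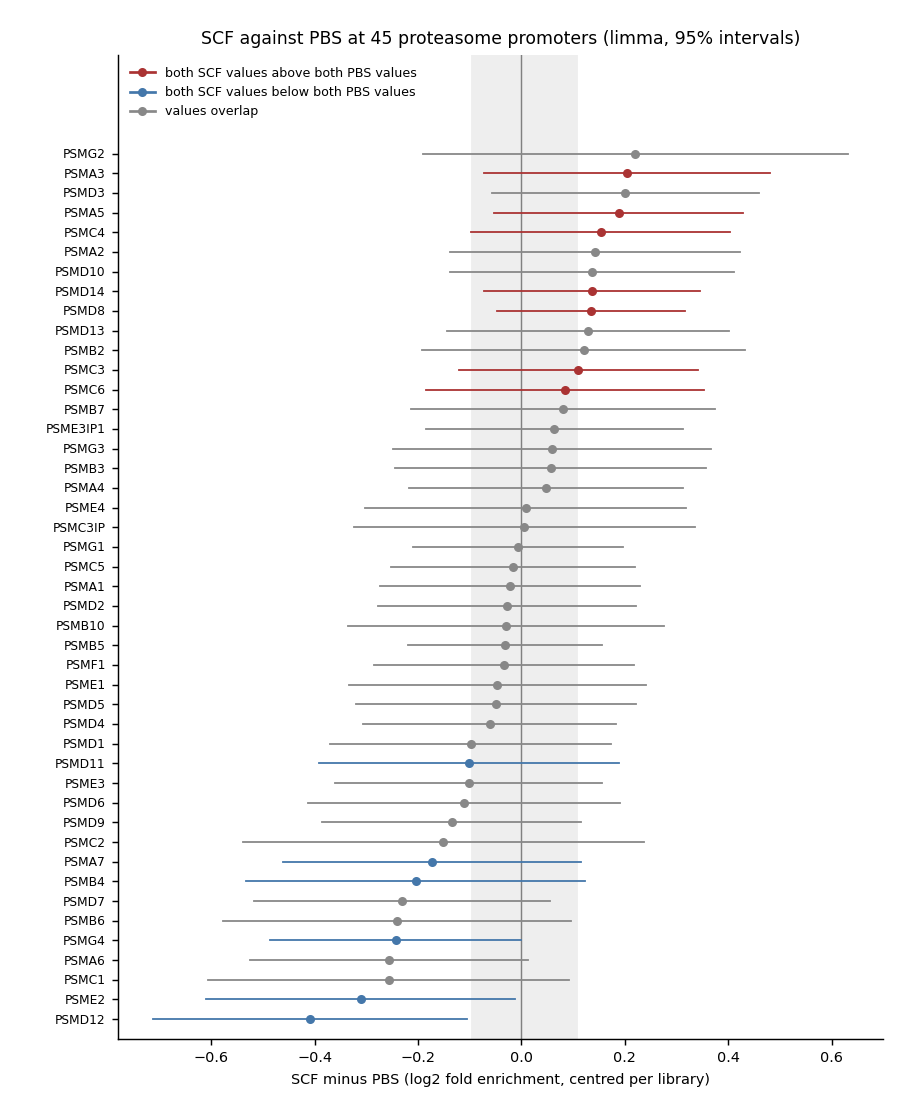
Difference of SCF minus PBS in log2 fold enrichment, centred per library (horizontal axis), for the 45 proteasome promoters with a peak in all 4 libraries; points are limma estimates and lines 95% intervals. The grey band spans the quartiles of all 11615 promoters; differences, each from the most enriched peak at any annotated start, run from −0.41 for PSMD12 to 0.22 for PSMG2, and colours mark the 7 and 6 genes whose groups did not overlap.

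A rank rule gave the same picture. No member had both SCF percentile ranks at least 10 points above or below both PBS ranks, whereas 0.809% of all promoters gained and 1.89% lost rank by this rule. At those shares fewer than 1 member in either direction would be called. PSMG4 came nearest, with ranks of 91.8 and 92.2 under PBS and 78.9 and 84.8 under SCF, a gap of 6.95 points. With PBS 1, PBS 2, SCF 1 or SCF 2 left out, the rule called 2 of 45, 3 of 46, 4 of 45 and 6 of 45 members. Over all promoters it then called 1177 of 11742, 1152 of 11682, 1258 of 11755 and 1441 of 11718. Fewer libraries had to be separated in these settings.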

How the data were processed

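Peak lists of 4 sgControl ATAC-seq libraries were analysed, 2 per treatment. The methods call the libraries biological duplicates. The authors used the ENCODE ATAC-seq pipeline, and the submitters' processing notes name bcl2fastq, Bowtie2 and SAMtools. The methods and notes name hg38, whereas the first line of each deposited list names hg19. The lists were read as hg19, and no peak passed the end of a GRCh37 chromosome (0 of 24). Each deposited list gives a score (not used), the fold enrichment (a ratio to local background), −log10 p-values and −log10 q-values, and the summit offset. Lists were called per library, and the largest q-value was 0.0497, so weaker sites are absent. Peak names inside the lists carry other replicate numbers than the labels, and the labels were followed.

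Pileups were recovered as the whole numbers that give both the deposited fold enrichment and the Poisson −log10 p, which succeeded for 100% of peaks at a relative tolerance of 0.0001. Intervals and limits from them cover counting error only. Peaks were assigned to GENCODE release 44 genes (lifted to GRCh37) when the summit lay within 1 kb of a coding transcript start, and the most enriched peak stood for a gene. Members and gene lists were chosen with earlier results of these data known. Differences were tested with limma 3.58.1 (R 4.3.3; trend, Benjamini-Hochberg adjustment), which was tested on simulated data, and described with percentile ranks within each list. Named genes were the catalytic pairs, PSMA8, PSMB11, PSME1, PSME2 and PSMC3IP, the 3 highest and lowest by enrichment, the 3 largest differences each way, any called member and any without a peak. Others are given as class extremes or as examples. PSME3IP1 was classed after the annotation was read. Alternatives covered the distance, start sites, q-value, scale, centring, ranks, replicate block and each library left out.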

Additional observations from a re-analysis of the deposited data

Results flagged for a closer look

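Outside the main measurement, 41 peaks over the 4 lists lay on haplotype contigs of chromosome 6, which the promoter comparisons did not use. They numbered 11 in PBS 1, 11 in PBS 2, 9 in SCF 1 and 10 in SCF 2, on 6 contigs in all. They are given here because the proteasome genes PSMB8 and PSMB9 lie in the part of chromosome 6 that such contigs duplicate and that held 2 to 4 peaks per library in the primary sequence. No annotation of these contigs was used, so the peaks were not assigned to genes.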

How the results depend on the processing

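The count of 45 members with a peak in all libraries stayed between 41 and 46 under all 12 alternatives. The median SCF minus PBS difference at the members stayed between −0.05 and −0.0002, and limma called 0 members under every alternative. Calls over all promoters were 0 in the main test, 8 with recovered pileup, 7 with the nearest summit, 21 with the replicate block and 1 to 6 with 1 library left out (the lone library of a treatment is then assumed to vary like the others). Replicate numbers did not pair the libraries (correlation of deviations 0.02). The excess of the core over the immunoproteasome, 3.21 on the log2 scale, became 83.1 points by percentile rank, 3.69 by pileup, 3.31 with PSMB5, PSMB6 and PSMB7 alone, 0.36 with PSME1 and PSME2 added and 0.34 with genes without a peak left out (0.79 with canonical starts alone, where a weak PSMB10 peak stands for PBS 2). It reversed to −0.13 by pileup with those genes left out, an alternative chosen after seeing the data, as were the canonical start site and peak overlap. Rank gaps, 0 members and 313 promoters in the main rule, were 157 promoters with ranks by −log10 p, 1 member (PSMG4) and 1132 promoters at 5 points, and 2 to 6 members and 1152 to 1441 promoters with 1 library left out. Around the summit, CCAAT fell from 44% to 26.7% of members and GGGCGG from 70.0% to 55.6%. The cause of these shifts was not tested, except that fewer libraries or a smaller gap make the rank rule easier to meet.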
